A study of Mus musculus with 2 samples.

Results

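The genes described here are 42 genes of DNA replication, out of 32285 genes in the count matrices, read in T cells that had infiltrated mouse tumours. They were chosen by name as parts of the replication machinery, and each of the 42 passed the minimum of 10 UMIs (unique molecular identifiers, which count captured transcripts) over both libraries in every T cell gate. Tumours were EMT6, a transplantable mouse mammary carcinoma line, grown under the skin of BALB/c mice aged 4 to 6 weeks and randomised at 80 to 150 mm3. One library came from mice given mSTAR1302 into the peritoneum in 2 weekly cycles, and the other from mice given vehicle. mSTAR1302 is an antibody that binds receptors built with the segments Trbv13-2 or Trbv13-3 and carries interleukin-2, as its makers describe it. CD4 and CD8 T cells were pulled from digested tumours with magnetic beads and kept in serum-containing medium, per the labels, before 3' droplet libraries were made. The sources used here do not say how many mice each library pools. With 1 library per group no difference below has a replicate check and no test was made.

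A cell copies its genome once per division. In G1 the loader proteins Cdc6 and Cdt1 place the Mcm2 to Mcm7 ring on DNA, and at the G1/S switch E2F factors and cyclin E turn on both the replication genes and the firing of loaded origins. Polymerases then copy the strands behind the ring, the Pcna clamp holds them on DNA, enzymes of nucleotide synthesis supply the building blocks, and chaperones pack the new strands into chromatin. T cells outside a response rarely divide, and activated CD8 T cells are among the fastest dividing cells of an adult mammal.

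Replication promoters commonly carry E2F words, and the RefSeq promoter windows of the GRCm38.p6 assembly (250 bases before to 50 after the start) held them often. The words TTTCCCGC, TTTGGCGC, TTTCGCGC and TTTGCCGC, searched on both strands, stood in 14 of 39 windows of the members (35.9%) and in 744 of 32851 windows of all genes (2.26%). The windows covered 34 of the 42 members, and 14 of these held a word. The shorter CCAAT box stood in 51.3% of the members' windows, against 37.4% of all windows. A match says only that these letters are there. For display, 6 genes with a word that begins before the start were picked by name. They do not span the results, as all 6 lay above 1 in CD8 cells. Among them, Cdc6 had the highest ratio of the 42 in CD8 cells, and Pola1 was among the lowest in CD4 cells without Foxp3. The 6 stretches of 80 bases below come from these genes. They run 5′ to 3′ on the gene's strand, with the E2F words in capitals. The capitals of Mcm6 at its left end and those of Mcm5 each hold 2 words that overlap on opposite strands.
Mcm6, chr1:128359741-128359820, minus strand, from 115 bases before the start: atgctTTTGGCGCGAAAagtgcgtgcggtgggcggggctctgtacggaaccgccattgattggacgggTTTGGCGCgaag
Mcm5, chr8:75109322-75109401, plus strand, from 187 bases before the start: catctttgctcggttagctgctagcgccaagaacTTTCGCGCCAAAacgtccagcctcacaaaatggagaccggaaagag
Cdc6, chr11:98907977-98908056, plus strand, from 174 bases before the start: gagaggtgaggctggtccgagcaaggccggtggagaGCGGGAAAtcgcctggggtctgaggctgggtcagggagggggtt
Pclaf, chr9:65890246-65890325, plus strand, from 77 bases before the start: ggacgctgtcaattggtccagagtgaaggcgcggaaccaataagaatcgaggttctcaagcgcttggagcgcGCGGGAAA
Hells, chr19:38930892-38930971, plus strand, from 98 bases before the start: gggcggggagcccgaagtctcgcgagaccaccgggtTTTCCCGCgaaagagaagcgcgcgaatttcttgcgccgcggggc
Pola1, chrX:93632250-93632329, minus strand, from 174 bases before the start: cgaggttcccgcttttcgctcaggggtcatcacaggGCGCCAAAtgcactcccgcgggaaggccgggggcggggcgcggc

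The libraries held 96486469 UMIs for mSTAR1302 and 110026997 for vehicle. Barcodes with at least 1000 UMIs, 500 genes and at most 10% mitochondrial UMIs numbered 9155 and 7615, of which 8718 and 6729 had at least 2 UMIs of Cd3d, Cd3e and Cd3g, parts of the T cell receptor complex. 17 of the barcodes kept occurred in both libraries. The CD8 gate (a Cd8a or Cd8b1 UMI and no Cd4 UMI) held 6290 mSTAR1302 and 2460 vehicle cells, with medians of 6597.5 and 9865.5 UMIs. The CD4 gate without a Foxp3 UMI held 791 and 622 cells, and the CD4 gate with a Foxp3 UMI, the transcript of regulatory T cells, held 146 and 1365. Trac, the constant part of the receptor alpha chain, which no gate used, was detected in 90.5% to 96.0% of the cells of each gate and library. Macrophage and monocyte markers differed between the libraries in the same cells. The 10 markers summed to 83.9 CPM (UMIs per 1000000 UMIs of the gate) in mSTAR1302 and 913 in vehicle CD8 cells, to 86.1 and 1307 in CD4 cells without Foxp3, and to 12.8 and 341 in CD4 cells with Foxp3, with none at 0 apart from 6 of the 10 in mSTAR1302 CD4 cells with Foxp3. Other lists differed in the CD8 gate too. The 5 EMT6 tumour markers summed to 8.26 CPM in mSTAR1302 (0 of 5 at 0) and 51.4 CPM in vehicle (Krt7 and Cldn4 at 0), the 6 fibroblast markers to 26.9 and 103 CPM, the 8 dendritic cell markers to 266 and 499.6 CPM, and the 4 NK markers to 29.6 and 89.4 CPM. In CD4 cells without Foxp3 the tumour markers summed to 2.49 CPM in mSTAR1302 and 9.49 CPM in vehicle. Near-empty droplets of 10 to 100 UMIs, which hold free RNA, carried the 42 genes at 1484 CPM in mSTAR1302 (330 UMIs) and 1590.1 CPM in vehicle (1409 UMIs), close to their level in the CD8 gate. This was above their level in CD4 cells without Foxp3 (957 CPM in mSTAR1302 and 1143 CPM in vehicle). It was below that in CD4 cells with Foxp3 (2488 and 2670 CPM). The part of macrophage, tumour and other cell transcripts and of free RNA in the values below was not tested, apart from the counts without macrophage-marked cells given beside them.

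In CD8 cells the replication genes together stood at 1632 CPM in the mSTAR1302 library and 1558 CPM in the vehicle library, a ratio of 1.05 (95% interval 1.04 to 1.06). All intervals here cover counting error only. Of the 42 genes 29 lay above 1 and 13 below, beside 26.8% of all 15112 genes measured in this gate above 1. The members' median log2 ratio was 0.19, whereas that of all measured genes was -0.23. At least 1.5-fold higher was 1 of the 42, beside 6.15% of all measured genes and 3.27% of those with at least 20 CPM. At least 1.5-fold lower were 0, beside 27.5% and 10.6%. Among the 5473 genes of at least 20 CPM in either library the median log2 ratio was -0.14, and relative to it the members' median was 0.34. Scaling by that median gave the sum a ratio of 1.16, with 34 of 42 genes above 1, beside 41.5% of all measured genes. The ratio is small beside its differences between cells of different depth, given next, whose cause was not tested.

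The summed ratio of CD8 cells differed between shallow and deep cells. Among cells of 3000 to 10000 UMIs the members stood at 1172 CPM in 4166 mSTAR1302 cells and 919.7 CPM in 1142 vehicle cells, a ratio of 1.27 (1.24 to 1.31). Among cells of 10000 to 30000 UMIs the levels were 2209.6 CPM in 1409 mSTAR1302 cells and 1517 CPM in 1131 vehicle cells, a ratio of 1.46 (1.43 to 1.48). The order was the other way round at both ends of the depth range. Above 30000 UMIs the members stood at 2319 CPM in 35 mSTAR1302 cells and 3168 CPM in 67 vehicle cells, a ratio of 0.732 (0.705 to 0.760). Below 3000 UMIs they stood at 981 CPM in 680 mSTAR1302 cells and 1332 CPM in 120 vehicle cells, a ratio of 0.737 (0.652 to 0.834). The cells above 30000 UMIs carried 4.51% of the members' UMIs in the mSTAR1302 gate and 26.4% in the vehicle gate. Of these cells 2 of 35 in mSTAR1302 and 34 of 67 in vehicle held more than 2 macrophage UMIs, and 6 and 26 held a Foxp3 UMI. No doublet caller was run, so droplets with several cells remain. Without the cells above 30000 UMIs the summed ratio was 1.22, 37 of 42 genes lay above 1, beside 30.2% of all genes measured without those cells. At least 1.5-fold higher were 10 rather than 1, beside 7.03% of all genes and 3.23% of those with at least 20 CPM. Without the cells of more than 2 macrophage UMIs it was 1.11, with 33 genes above 1 and 3 at least 1.5-fold higher, beside 7.54% of all genes and 2.94% of those with at least 20 CPM. The depth ranges were set after the data were seen.

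The helicase ring had all 6 subunits above 1 in CD8 cells and a summed ratio of 1.17 (1.14 to 1.21). Mcm6 stood at 49.0 CPM in mSTAR1302 and 39.6 CPM in vehicle, a ratio of 1.24 (1.15 to 1.33). Mcm5 stood at 46.6 CPM in mSTAR1302 and 37.8 CPM in vehicle, a ratio of 1.23 (1.15 to 1.32). Mcm4 stood at 47.6 CPM in mSTAR1302 and 40.1 CPM in vehicle, a ratio of 1.19 (1.10 to 1.27). Each of these intervals lies above 1, as do those of the other ring subunits. Mcm7 had 47.0 CPM in mSTAR1302 and 41.1 CPM in vehicle. Mcm2 had 26.8 CPM in mSTAR1302 and 23.8 CPM in vehicle. Mcm3 had 54.5 CPM in mSTAR1302 and 48.8 CPM in vehicle. All 6 also lay above 1 under each of the 10 other ways of counting that were tried, between 1.09 and 1.56.

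Among the genes that load the ring and start replication, 5 of 7 lay above 1 in CD8 cells, and their sum had a ratio of 1.16 (1.11 to 1.21). Cdc6, which loads the ring onto origins, was the one gene of the 42 past 1.5-fold. It stood at 7.91 CPM in mSTAR1302 (386 UMIs) and 4.49 CPM in vehicle (130 UMIs), a ratio of 1.76 (1.44 to 2.17). Cdt1, its partner in loading, stood at 31.8 CPM in mSTAR1302 and 23.4 CPM in vehicle, a ratio of 1.36 (1.24 to 1.49). Gmnn, the inhibitor of Cdt1 that prevents a second round of copying, stood at 51.3 CPM in mSTAR1302 and 47.4 CPM in vehicle, a ratio of 1.08 (1.01 to 1.16). The loader was thus further from 1 than its inhibitor in these libraries. Mcm10, which acts when the helicase is activated, had 5.25 CPM in mSTAR1302 and 3.77 CPM in vehicle, a ratio of 1.39 (1.11 to 1.76). The subunits that join the ring to make the moving helicase were divided. Cdc45 had 9.90 CPM in mSTAR1302 and 8.47 CPM in vehicle, a ratio of 1.17 (1.00 to 1.37) that lay above 1 in 11 of 11 ways of counting. Gins2 had 16.1 CPM in mSTAR1302 and 16.7 CPM in vehicle. Gins1 had 3.67 CPM in mSTAR1302 and 4.11 CPM in vehicle, with an interval of its ratio from 0.704 to 1.13. Cdt1 overlaps the predicted gene Gm20388 on the same strand at its 3' end in the annotation, so its count may be shared with it.

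The polymerases had a summed ratio of 1.10 (1.05 to 1.16) in CD8 cells, with 4 of 5 above 1. Pole, the catalytic subunit of the leading-strand polymerase, had 12.5 CPM in mSTAR1302 and 10.2 CPM in vehicle, a ratio of 1.22 (1.06 to 1.40). Prim1, the primase that lays the RNA primers, had 24.7 CPM in mSTAR1302 and 20.8 CPM in vehicle, a ratio of 1.18 (1.07 to 1.31). Pola1, the catalytic subunit of the priming polymerase, had 24.3 CPM in mSTAR1302 and 21.2 CPM in vehicle. Each of these stood slightly above 1, as did the lagging-strand polymerase. Pold1 had 15.5 CPM in mSTAR1302 and 13.6 CPM in vehicle. Pola2, the accessory subunit of the priming polymerase, was the exception with 24.1 CPM in mSTAR1302 and 25.7 CPM in vehicle, its interval of 0.854 to 1.03 holds 1, and it lay above 1 in 3 of 11 ways of counting.

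The clamp, its loader and the joining enzymes were divided in CD8 cells, 4 above and 4 below 1. Pclaf, a small protein that binds the Pcna clamp, had 136 CPM in mSTAR1302 and 103 CPM in vehicle, a ratio of 1.31 (1.26 to 1.37). Lig1, the ligase that seals the lagging strand, had 53.6 CPM in mSTAR1302 and 46.8 CPM in vehicle, a ratio of 1.15 (1.07 to 1.22). Pcna itself had 172 CPM in mSTAR1302 and 175 CPM in vehicle, a ratio of 0.983 (0.949 to 1.02). Clamp and clamp-binding protein therefore stood apart in the same cells. 2 subunits of the clamp loader lay below 1. Rfc3 had 33.6 CPM in mSTAR1302 and 39.8 CPM in vehicle, a ratio of 0.843 (0.781 to 0.910). Rfc2 had 57.9 CPM in mSTAR1302 and 66.1 CPM in vehicle, a ratio of 0.875 (0.826 to 0.928). The loader's other subunits were near 1. Rfc4 had 22.5 CPM in mSTAR1302 and 21.8 CPM in vehicle, and Rfc5 had 22.9 and 22.5 CPM. Fen1, the nuclease that trims the flaps between lagging-strand fragments, had 21.0 CPM in mSTAR1302 and 24.1 CPM in vehicle, a ratio of 0.872 (0.791 to 0.962). Rfc2, Rfc3, Fen1 and Dut lay below 1 under every way of counting tried in this gate, as 4 of the 42 genes did, while 27 lay above 1 under every one and 11 on both sides.

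Nucleotide synthesis was the one group whose summed ratio lay below 1 in CD8 cells, at 0.911 (0.888 to 0.936), but it lay at 1.01 when scaled to the median gene, at 1.01 with cells at equal depth and at 1.11 without the cells above 30000 UMIs. Within the group the 2 subunits of ribonucleotide reductase, which makes deoxynucleotides, went opposite ways. Rrm2, the subunit made mainly in S phase, had 44.4 CPM in mSTAR1302 and 36.4 CPM in vehicle, a ratio of 1.22 (1.13 to 1.31). Rrm1, the large subunit, had 40.8 CPM in mSTAR1302 and 48.0 CPM in vehicle, a ratio of 0.851 (0.794 to 0.912). Neither interval holds 1, although Rrm1 lay above 1 in 2 of 11 ways of counting. Dut, which removes dUTP, had 136 CPM in mSTAR1302 and 163 CPM in vehicle, a ratio of 0.837 (0.806 to 0.869). Tk1, the thymidine salvage kinase, had 23.1 CPM in mSTAR1302 and 26.8 CPM in vehicle, and lay above 1 in 4 of 11 ways of counting. Tyms, the thymidylate synthase, had 38.6 CPM in mSTAR1302 and 38.8 CPM in vehicle. Ung, which cuts uracil out of DNA, had 8.5 CPM in mSTAR1302 and 7.22 CPM in vehicle, with an interval of 0.995 to 1.40.

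Genes of the G1/S switch stood highest as a group in CD8 cells, with all 3 above 1 and a summed ratio of 1.27 (1.16 to 1.39). E2f1, an activating E2F factor, had 14.4 CPM in mSTAR1302 and 10.8 CPM in vehicle, a ratio of 1.33 (1.16 to 1.53). Ccne2, one of the cyclins E, had 8.24 CPM in mSTAR1302 and 6.29 CPM in vehicle, a ratio of 1.31 (1.10 to 1.57). Ccne1, the other, had 10.3 CPM in mSTAR1302 and 8.81 CPM in vehicle. Fork protection held a contrast of its own. Clspn, which carries the checkpoint signal from stalled forks, had 37.4 CPM in mSTAR1302 and 27.9 CPM in vehicle, a ratio of 1.34 (1.23 to 1.46). Tipin, which holds the fork together with Timeless, had 42.4 CPM in mSTAR1302 and 49.4 CPM in vehicle, a ratio of 0.857 (0.801 to 0.918), which lay above 1 in 2 of 11 ways of counting. Of the genes that handle chromatin and histones, Uhrf1, which takes part in copying DNA methylation to the new strand, was the farthest from 1. It had 29.9 CPM in mSTAR1302 and 23.6 CPM in vehicle, a ratio of 1.27 (1.16 to 1.39). Chaf1b, a subunit of the histone chaperone CAF-1, had 15.5 CPM in mSTAR1302 and 13.2 CPM in vehicle. Its partner Chaf1a had 13.6 CPM in mSTAR1302 and 13.2 CPM in vehicle. The last pair of the group lay on either side of 1. Hells, a chromatin remodeller, had 47.8 CPM in mSTAR1302 and 44.8 CPM in vehicle. Slbp, which binds the ends of histone messengers, had 103 CPM in mSTAR1302 and 109 CPM in vehicle.

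**Figure D1:**
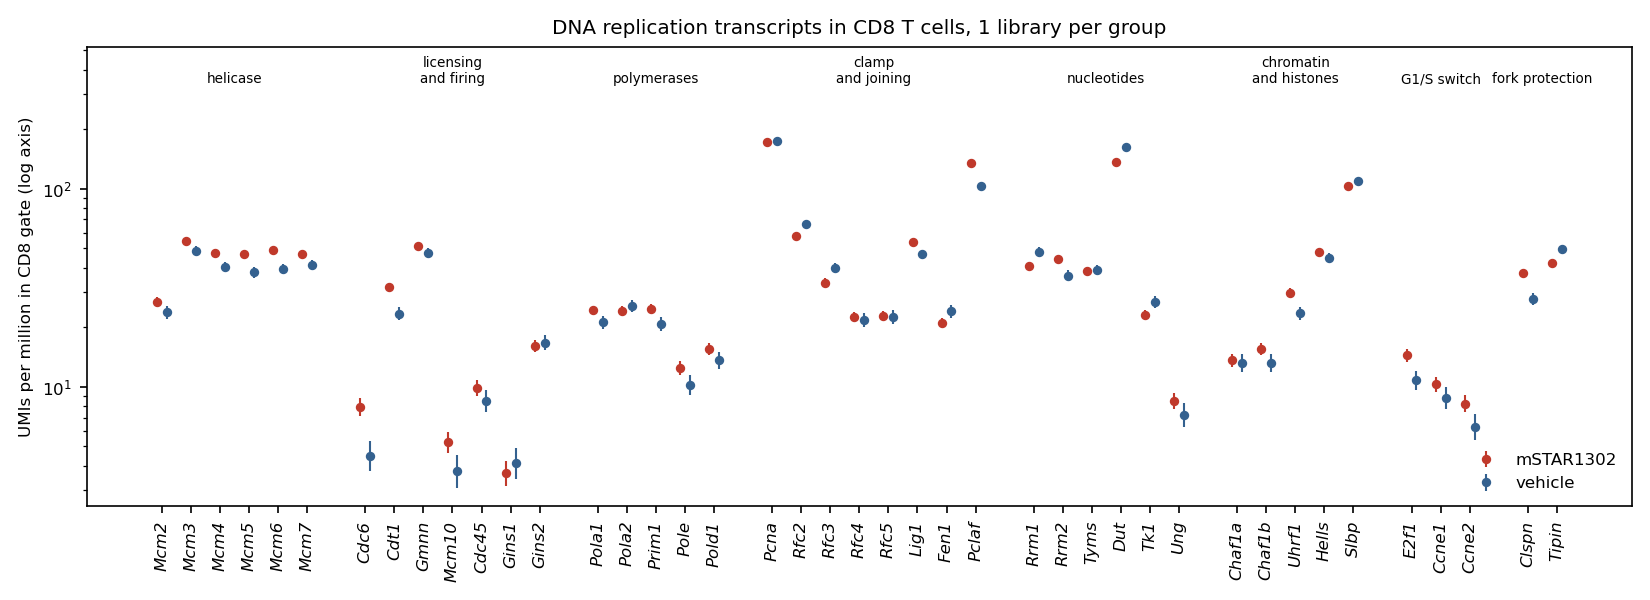
Level of each of the 42 replication genes in the CD8 gate, in CPM on a log axis, with mSTAR1302 in red left of vehicle in blue and bars for the 95% counting interval of 1 library each. Cdc6 stands at 7.91 CPM in mSTAR1302 against 4.49 CPM in vehicle, while Pcna is at 172 against 175 CPM and Dut at 136 against 163 CPM.

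In CD4 cells without a Foxp3 UMI the summed ratio lay on the other side of 1, as did most of all measured genes. Their replication genes summed to 957 CPM in mSTAR1302 and 1143 CPM in vehicle, a ratio of 0.837 (0.805 to 0.871). It was 0.971 when scaled to the median gene and 0.854 without the cells of more than 2 macrophage UMIs. Of the 42 genes 7 lay above 1 (16.7%) and 35 below, beside 23.9% of the 11470 genes measured in this gate above 1. Their median log2 ratio was -0.36, against -0.31 over all measured genes. Scaled to the median gene, 27 lay below 1 and 15 above, beside 41.3% of all measured genes above 1. 9 members were at least 1.5-fold lower, beside 30.7% of all measured genes and 16.6% of those with at least 20 CPM. 1 member was at least 1.5-fold higher, beside 3.91% and 2.30%. The members' count of lower genes thus lay between what these 2 backgrounds give. Scaled to the median gene, 3 were lower past 1.5-fold, beside 21.5% and 8.57%, and 2 higher, beside 7.27% and 5.56%. The one higher gene was Mcm10, from 14 UMIs in mSTAR1302 and 7 in vehicle.

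The polymerases stood lowest in these CD4 cells, with a summed ratio of 0.659 (0.557 to 0.779). Pold1 had 6.70 CPM in mSTAR1302 (35 UMIs) and 14.6 CPM in vehicle (63 UMIs), a ratio of 0.459 (0.295 to 0.705). Pola1 had 10.5 CPM in mSTAR1302 and 19.7 CPM in vehicle, a ratio of 0.535 (0.374 to 0.760). Pola2 had 14.5 CPM in mSTAR1302 and 22.9 CPM in vehicle, a ratio of 0.635 (0.464 to 0.865). The enzymes that finish the lagging strand followed. Lig1 had 26.4 CPM in mSTAR1302 and 44.0 CPM in vehicle, a ratio of 0.601 (0.479 to 0.752). Fen1 had 12.8 CPM in mSTAR1302 and 20.6 CPM in vehicle, a ratio of 0.623 (0.447 to 0.864). All 6 ring subunits lay below 1, with a summed ratio of 0.758 (0.684 to 0.841), and 5 of 6 when scaled to the median gene. At the other end of the range no interval excluded 1. Gins2 had a ratio of 1.24 (0.809 to 1.92), Hells of 1.20 and Pole of 1.15 (0.653 to 2.06). Dut, below 1 in CD8 cells, had a ratio of 1.12 (0.975 to 1.29) here, with 90.2 CPM in mSTAR1302 and 80.3 CPM in vehicle. Pclaf had a ratio of 1.04 (0.882 to 1.23).

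7 genes had intervals wholly above 1 in CD8 cells and wholly below 1 in CD4 cells without Foxp3. These were Mcm4, Mcm6, Mcm7, Cdt1, Pola1, Pold1 and Lig1, and the difference between the gates was not tested. The share of all genes with such opposite intervals was not counted, so the 7 of 42 cannot be set against it. Over the 42 genes, the interval lay above 1 for 24 in CD8 cells, beside 11.4% of all measured genes and 19.0% of those with at least 20 CPM, and below 1 for 8, beside 48.8% and 59.0%. In CD4 cells without Foxp3 it lay above 1 for 0, beside 6.73% and 12.1%, and below 1 for 15, beside 36.1% and 44.0%. The 15 genes below 1 thus make a share near the background. In CD4 cells with Foxp3 it lay above 1 for 0, beside 4.30% and 7.03%, and below 1 for 2, beside 12.8% and 21.1%. The CD4 gates are far smaller, so their intervals are wider.

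CD4 cells with a Foxp3 UMI carried the highest level of replication transcripts of the 3 gates in both libraries. They summed to 2488 CPM in mSTAR1302 and 2670.1 CPM in vehicle, a ratio of 0.932 (0.898 to 0.967), which turned to 1.02 when scaled to the median gene. The mSTAR1302 value rests on 146 cells. Of the 42 genes 12 lay above 1 and 30 below, beside 32.6% of the 12374 genes measured above 1. When scaled to the median gene 23 lay above and 19 below, beside 45.2% above. The members' median log2 ratio was -0.12, against -0.18 over all measured genes. 2 members were at least 1.5-fold lower, beside 23.9% of all measured genes and 8.78% of those with at least 20 CPM, and 0 were at least 1.5-fold higher, beside 6.87% and 2.04%. When scaled to the median gene 1 was lower, beside 19.5% and 4.78%, and 1 higher, beside 9.10% and 3.49%. Cdc6, the highest of the 42 in CD8 cells, was the lowest here, with 8.02 CPM in mSTAR1302 (10 UMIs) and 13.4 CPM in vehicle (194 UMIs), a ratio of 0.597 (0.282 to 1.12). Gins1 had a ratio of 0.620 (0.223 to 1.39), Chaf1a of 0.702 (0.449 to 1.05), E2f1 of 0.705 (0.379 to 1.21) and Mcm10 of 0.709 (0.318 to 1.38). Pold1, the lowest of the polymerases in the other CD4 gate, was the highest gene here at 1.43 (0.995 to 2.01), from 38 and 307 UMIs. Pola1 had a ratio of 1.16, Ung of 1.16, Mcm7 of 1.15 and Uhrf1 of 1.13. The intervals of all 10 of these genes hold 1.

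**Figure D2:**
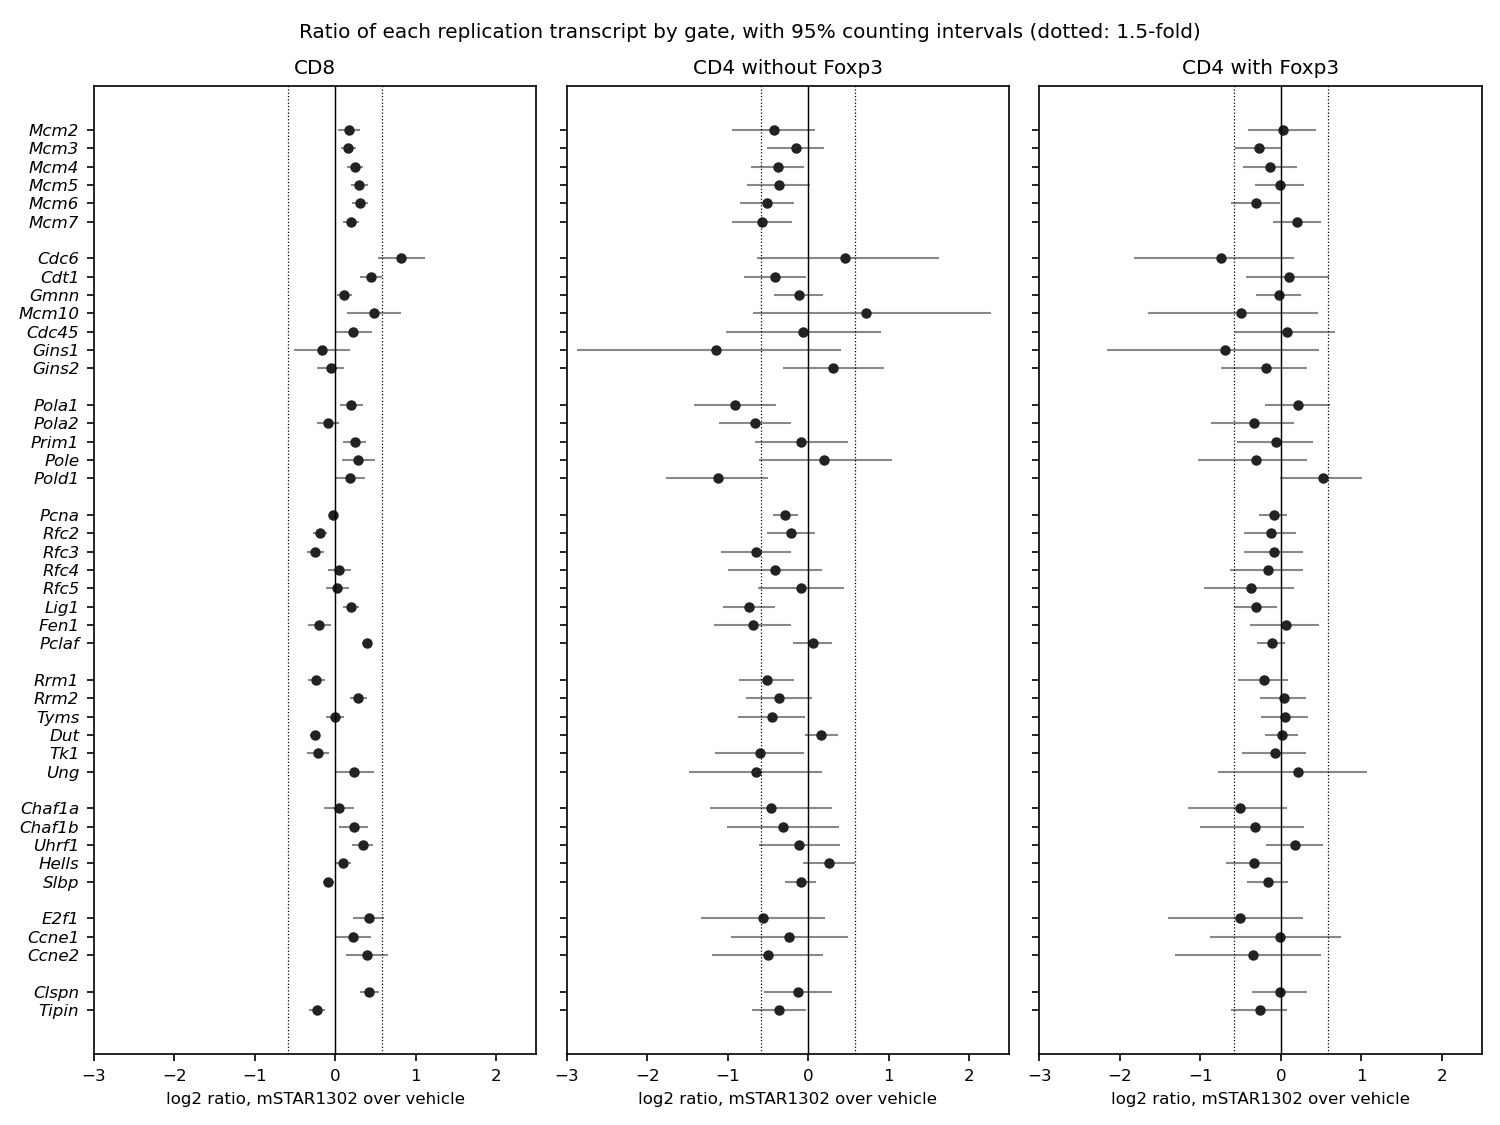
Log2 ratio of mSTAR1302 over vehicle for each of the 42 genes in the 3 T cell gates, with 95% counting intervals and dotted lines at 1.5-fold. Of the 42 points 29 lie right of 0 in CD8 cells, beside 26.8% of all measured genes. In CD4 cells without Foxp3 35 of 42 lie left of 0, while 23.9% of all measured genes lie right of it. Cdc6 is the one point of the CD8 panel past a dotted line.

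Summed counts weight deep cells, so each cell of at least 3000 UMIs was also drawn down to 3000 UMIs at random. At that equal depth a CD8 cell held a median of 2 replication UMIs in both libraries, and the libraries parted in the upper tail. At least 10 replication UMIs were found in 609 of 5610 mSTAR1302 cells (10.9%, exact interval 10.1% to 11.7%) and in 163 of 2340 vehicle cells (6.97%, 5.97% to 8.07%), a difference of 3.89 points (2.53 to 5.17). With 2 other random draws the difference was 3.42 and 3.07 points. The threshold marks a range of a score and no cell type, and 322 mSTAR1302 and 109 vehicle cells held 8 to 12. 680 mSTAR1302 and 120 vehicle cells were too shallow to enter. The cells past it had medians of 10872 UMIs in mSTAR1302 and 21055 in vehicle before thinning, against 6790.0 and 9853 in the cells under it.

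In both CD4 gates the interval of the difference at 10 UMIs held 0. In CD4 cells without Foxp3, 29 of 690 mSTAR1302 cells (4.20%) and 16 of 545 vehicle cells (2.94%) held at least 10, a difference of 1.27 points (-0.914 to 3.36), and with the other draws -0.443 and -0.0758 points. At a threshold of 5 the same gate had 9.13% of mSTAR1302 and 16.1% of vehicle cells, a difference of -7.02 points (-10.9 to -3.30). In CD4 cells with Foxp3, 22 of 134 mSTAR1302 cells (16.4%) and 233 of 1289 vehicle cells (18.1%) held at least 10, a difference of -1.66 points (-7.41 to 5.81).

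**Figure D3:**
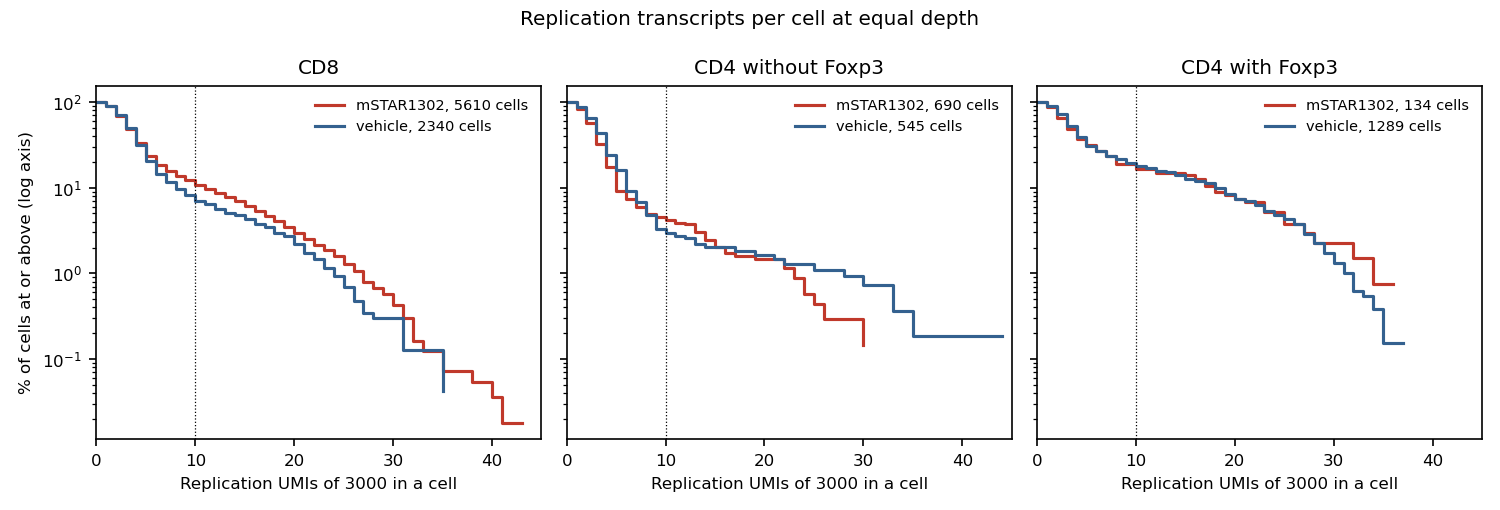
Percent of cells (log axis) at or above each number of replication UMIs of 3000, for mSTAR1302 in red and vehicle in blue, in the 3 gates, with a dotted line at 10. In CD8 cells the curves part above 5 UMIs and stand at 10.9% and 6.97% at the line, while in CD4 cells with Foxp3 they run together.

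Replication transcripts were read beside those of mitosis, the step that follows. In CD8 cells the 32 mitosis genes summed to 1037 CPM in mSTAR1302 and 1189 CPM in vehicle, a ratio of 0.872 (0.860 to 0.884). Of these genes 7 lay above 1 and 25 below, beside 26.8% of all measured genes above 1. This list depended on the deepest cells more than the replication genes did. Without the cells above 30000 UMIs its ratio was 1.22 with 31 of 32 genes above 1, beside 30.2% of all measured genes. At equal depth it was 1.02 with 25 above 1, beside 30.8%. Scaled to the median gene it was 0.963 with 17 above 1, beside 41.5%. 3 mitosis genes were at least 1.5-fold lower, beside 27.5% of all measured genes and 10.6% of those with at least 20 CPM. They were Cenpa (89.0 CPM in mSTAR1302 and 199 CPM in vehicle), Ccnb1 and Plk1, named here after their values were seen. At equal depth, cells with at least 10 replication UMIs and no fewer than 10 mitosis UMIs made up 4.97% of mSTAR1302 and 3.25% of vehicle CD8 cells. Those with at least 10 replication UMIs and fewer mitosis UMIs made up 5.88% (5.28% to 6.53%) and 3.72% (2.99% to 4.57%). Both kinds of cell were thus more frequent in the mSTAR1302 library.

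The 42 genes differed in how closely they followed mitosis within CD8 cells at equal depth. Cells with at least 10 mitosis UMIs were set against cells with 0 in each library. Rrm2 was 56.1-fold higher in such cells of the mSTAR1302 library and 73.2-fold higher in those of the vehicle library. Pclaf was 70.2-fold higher in mSTAR1302 and 58.7-fold higher in vehicle. Both are known as genes of S phase and later. Cdc6 was 30.6-fold higher in mSTAR1302 (15.2 to 68.0), and the vehicle library held 5 UMIs of it against 1, too few for a fold. Mcm10 was 31.7-fold higher in mSTAR1302 (12.9 to 93.7), and the vehicle library held 5 UMIs against 3. Tk1 was 27.4-fold higher in mSTAR1302 and 19.0-fold in vehicle. Other genes followed mitosis far less. Ung stood at 0.629 (0.196 to 1.56) in mSTAR1302, from 5 UMIs against 54. In vehicle it lay on the other side of 1, at 2.96 (0.687 to 9.99) from 4 UMIs against 11. Both intervals of Ung hold 1. Cdt1 was 1.84-fold higher in mSTAR1302 (1.35 to 2.47) and 1.52-fold in vehicle (0.719 to 2.92). Rfc2 was 1.87-fold higher in mSTAR1302 and 2.26-fold in vehicle. Slbp was 2.27-fold higher in mSTAR1302 (1.95 to 2.64) and 2.11-fold in vehicle (1.58 to 2.76). Cdt1 protein is known to be destroyed once S phase begins. The helicase ring lay between, from 2.85-fold for Mcm2 to 5.36-fold for Mcm5 in mSTAR1302 and from 2.68-fold for Mcm4 to 5.39-fold for Mcm3 in vehicle. The order of the genes is a description over cells of 1 library each, which share depth and free RNA.

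**Figure D4:**
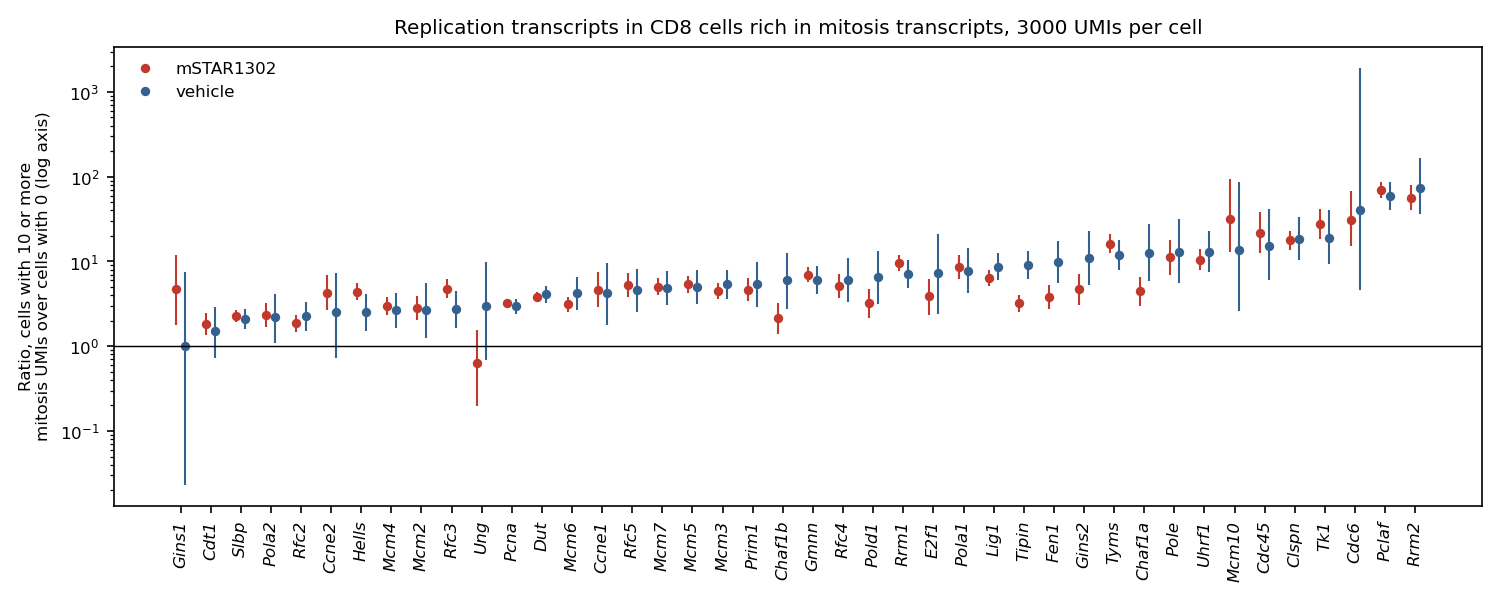
Ratio of each replication gene in CD8 cells with at least 10 mitosis UMIs over cells with 0, at 3000 UMIs per cell, on a log axis, with 95% counting intervals, for mSTAR1302 in red left of vehicle in blue. Rrm2 and Pclaf stand above 50 in both libraries, while Cdt1 and Slbp stay under 3.

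Across CD8 cells at equal depth, the 10 genes outside the 42 whose log count went most closely with the log of the replication sum were Stmn1, Hist1h2ap, Hist1h1b, Tubb5, Mki67, Ptma, Top2a, Birc5, Spc24 and Hmgb2, of 8777 ranked. The measure was the lower of the 2 libraries' Pearson correlations over cells, which share their depth, and it was 0.509 for Stmn1, a microtubule-destabilising protein, and 0.324 for Hmgb2, a chromatin protein. Among the 42 genes, each set against the sum of the others, Pclaf (0.430), Rrm2 (0.338), Lig1 (0.320) and Mcm3 (0.317) went most closely with the rest. Ccne2 (0.0628), Gins1 (0.0771), Slbp (0.0830) and Rfc3 (0.0831) went least.

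The share of CD8 cells past 10 replication UMIs was also set against single genes of T cell state, each read among the same 3000 UMIs. With an Mki67 UMI, a marker of cycling cells, it was 53.8% in 665 mSTAR1302 cells and 35.1% in 268 vehicle cells, and without one 5.08% and 3.33%. In the mSTAR1302 library, cells with a Gzma UMI, a granzyme of killer cells, had 12.3% past it and cells without 9.16%, a difference of 3.11 points (1.49 to 4.72), against 1.38 points (-2.38 to 7.40) in vehicle. Cells with a UMI of Tcf7, a factor of memory and stem-like T cells, had 7.40% and cells without 11.4%, a difference of -3.98 points (-5.89 to -1.68), against -1.11 points (-3.71 to 2.68) in vehicle. Cells with a UMI of Ccr7, a lymph node homing receptor, had 7.75% and cells without 11.3%, a difference of -3.58 points (-5.52 to -1.27), against -0.939 points (-2.98 to 1.26) in vehicle. Whether these differences themselves differed between the libraries was not tested. Cells with Havcr2, an inhibitory receptor, had 8.32% and cells without 11.4% in mSTAR1302 (difference -3.04 points, -4.91 to -0.899), and 2.91% and 7.51% in vehicle (difference -4.60 points, -6.47 to -1.67). For Pdcd1, another inhibitory receptor, and for Il2ra, the interleukin-2 receptor alpha chain, the intervals of the difference held 0 in both libraries. So did those of Gzmb, Gzmk, Tox, Klrg1, Itgae and Foxp3.

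The antibody part of mSTAR1302 is directed at Trbv13-2 and Trbv13-3, so CD8 cells with a UMI of either segment were set against those without. 3' libraries seldom reach this part of the messenger, and a cell without the UMI may still use the segment. In the mSTAR1302 library the replication genes summed to 1918 CPM in 805 cells with the UMI and 1578 CPM in 5485 cells without, a ratio of 1.22 (1.19 to 1.24). All 42 genes lay above 1, beside 52.4% of the 13750 genes measured. The members' median log2 ratio was 0.28, against 0.01 over all measured genes. Of the 42, 3 were at least 1.5-fold higher, beside 5.99% of all measured genes and 0.829% of those with at least 20 CPM. At least 1.5-fold lower were 0, beside 14.2% and 1.68%. In the vehicle library the same split gave 1959 CPM in 101 cells with the UMI and 1538 CPM in 2359 cells without, a ratio of 1.27 (1.23 to 1.32). There 39 of 42 genes lay above 1, beside 45.9% of all measured genes. Of the 42, 12 were at least 1.5-fold higher, beside 9.13% of all measured genes and 2.91% of those with at least 20 CPM, and 0 lower, beside 23.9% and 3.32%. The ratio thus lay above 1 in both libraries. Cells with the UMI were deeper, with medians of 8329 against 6320.0 UMIs in mSTAR1302 and 11933 against 9813 in vehicle.

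A UMI of any receptor segment favours deep cells, so cells with a UMI of another Trbv segment were a closer comparison. Against these the ratio was 1.17 (1.14 to 1.20) in mSTAR1302 and 1.06 (1.02 to 1.11) in vehicle. In mSTAR1302 37 of 42 genes then lay above 1, beside 55.9% of all measured genes. Of the 42, 4 were at least 1.5-fold higher, beside 9.71% of all measured genes and 3.74% of those with at least 20 CPM, and 0 lower, beside 10.1% and 4.13%. In vehicle 26 of 42 (61.9%) lay above 1, beside 51.9% of all measured genes. Of the 42, 3 were at least 1.5-fold higher, beside 8.80% and 2.98%, and 1 lower, beside 12.3% and 1.86%. The vehicle counts are thus lower than those against all other cells. In mSTAR1302 the other-segment cells numbered 802, with a median of 8469 UMIs and 1640.1 CPM of replication transcripts. In vehicle they numbered 503, with a median of 11099 UMIs and 1847 CPM. At equal depth, at least 10 replication UMIs were found in 14.1% of mSTAR1302 cells with Trbv13-2 or Trbv13-3 (11.8% to 16.8%) and 9.79% of those with another segment (7.78% to 12.1%). In vehicle these shares were 10.0% (4.90% to 17.6%) and 10.0%. Whether the split differed between the libraries was not tested.

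Gins1, Cdc6 and Clspn were the 3 genes past 1.5-fold by receptor in the mSTAR1302 library. Gins1 had 6.43 CPM in cells with the UMI (50 UMIs) and 3.14 CPM in cells without (129 UMIs), a ratio of 2.04 (1.44 to 2.85), but 1.49 against cells with another segment, with an interval that holds 1. Cdc6 had 12.5 CPM with and 7.05 CPM without, a ratio of 1.77 (1.39 to 2.23), and 2.11 (1.48 to 3.05) against cells with another segment. Clspn had 55.7 CPM with and 34.0 CPM without, a ratio of 1.64 (1.47 to 1.83), and 1.70 (1.45 to 1.98) against cells with another segment. Of these, Cdc6 and Clspn also had intervals above 1 between the libraries in the CD8 gate. Pclaf had a ratio of 1.46 and Cdc45 of 1.41. Dut was the lowest at 1.01 (0.947 to 1.08), followed by Tipin at 1.02, Slbp at 1.07, Rfc3 at 1.07 and Ccne2 at 1.07. In the vehicle library Cdc45 had the highest ratio at 1.95 (1.20 to 3.02) from 22 UMIs in cells with the receptor UMI (0.487 at equal depth), then Clspn at 1.90 (1.47 to 2.43; 1.20, 0.910 to 1.56, against another segment), Gins1 at 1.81, Ung at 1.75 and Pole at 1.74. Mcm10, with 4 UMIs in cells with the receptor UMI, was lowest at 0.752 (0.201 to 1.98), followed by Rfc5 at 0.919, Tipin at 0.970, Pold1 at 1.00 and Dut at 1.01. Dut and Tipin were among the 5 lowest and Clspn, Gins1 and Cdc45 among the 5 highest in both libraries. The vehicle ratio of Gins1 rests on 10 UMIs in cells with the receptor UMI, with an interval of 0.845 to 3.46.

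**Figure D5:**
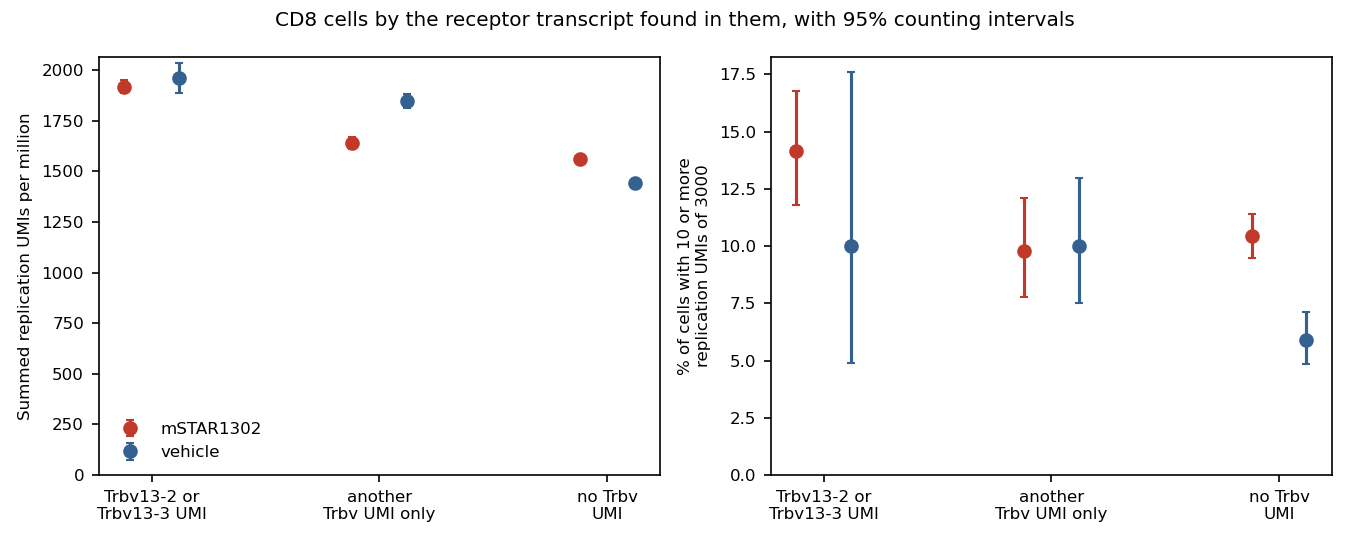
CD8 cells by the receptor transcript found in them, with mSTAR1302 in red left of vehicle in blue. The left panel gives summed replication transcripts in CPM and the right panel the percent of cells with at least 10 replication UMIs of 3000, with 95% counting intervals. Cells with Trbv13-2 or Trbv13-3 stand at 1918 and 1959 CPM, and the 2 libraries are apart in cells with no Trbv UMI, at 10.4% and 5.92%.

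A list of 71 further replication genes was read the same way. In CD8 cells they summed to 2579 CPM in mSTAR1302 and 2493 CPM in vehicle, with a median log2 ratio of 0.08. Of the 71, 45 lay above 1 and 26 below (61 and 10 when scaled to the median gene). Of all measured genes 26.8% lay above 1 (41.5% when scaled). Past 1.5-fold were 3 higher, beside 6.15% of all measured genes, and 1 lower, beside 27.5%. Recql4, a helicase of origin firing, had 1.82 CPM in mSTAR1302 and 1.00 CPM in vehicle, a ratio of 1.82 (1.19 to 2.87). E2f7, an E2F repressor, had a ratio of 1.70 (1.38 to 2.11), and E2f2, an E2F activator, of 1.47 (1.26 to 1.72). Samhd1, which breaks down deoxynucleotides, had 168 CPM in mSTAR1302 and 104 CPM in vehicle, a ratio of 1.61 (1.54 to 1.67). It thus works against ribonucleotide reductase. Exo1, a nuclease, had a ratio of 1.41. The lowest was Rpa3, the small subunit of the single-strand binding protein, with 27.3 CPM in mSTAR1302 and 51.4 CPM in vehicle, a ratio of 0.531 (0.492 to 0.572). Pold4 had a ratio of 0.701, Dtymk of 0.763, Cdk2 of 0.764 and Supt16 of 0.781. In CD4 cells without Foxp3 69 of the 71 were measured, with 54 below 1 (39 when scaled to the median gene). Of all measured genes 23.9% lay above 1 there (41.3% when scaled). At least 1.5-fold higher were 2, beside 3.91% and 2.30%, and 15 were lower. The lower count again lies between the backgrounds of 30.7% and 16.6%. In CD4 cells with Foxp3 47 of 71 lay below 1 (33 when scaled), while 32.6% of all measured genes lay above 1 (45.2% when scaled). Past 1.5-fold were 1 higher, beside 6.87% and 2.04%, and 11 lower, beside 23.9% and 8.78%. Among 12 inhibitors of the cell cycle, 3 lay above 1 (25%) and 9 below in CD8 cells, near the 26.8% of all measured genes above 1. Cdkn1a, which encodes the p21 inhibitor, was the one past 1.5-fold above, with 73.8 CPM in mSTAR1302 and 38.8 CPM in vehicle, a ratio of 1.90 (1.78 to 2.04). Cdkn2a (0.658) and Rbl2 (0.666) were past it below. Of all measured genes 6.15% were past 1.5-fold above and 27.5% below. Of those with at least 20 CPM 3.27% were above and 10.6% below. The inhibitors are named here after their values were seen.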

How the data were processed

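Single-cell 3' RNA libraries of T cells from EMT6 tumours were compared, 1 library for mSTAR1302 and 1 for vehicle. The deposited matrices hold raw UMI counts, one value for a gene in a barcode. They come from Cell Ranger, of version 4 per the file headers but 6.0.1 per the submitters' processing notes, which also list mm10, FastQC, MultiQC 1.9 and Seurat. The version is thus uncertain, and no source used here gives the annotation release. The matrices were unfiltered, with 1728776 and 1910622 barcodes. Cells were kept, gated and thinned (3000 UMIs, seed 1) as given in the text, and no doublet caller was run. Levels (CPM) are a gate's summed UMIs of a gene over all its UMIs. Levels have exact Poisson, ratios exact conditional binomial, shares exact Clopper-Pearson and differences of shares Newcombe intervals at 95%, which cover counting error only. The calculation was tested on simulated data. A gene counted as higher or lower past 1.5-fold. The members, gene lists and thresholds were chosen with earlier results of these data known. Named genes are all 42 in CD8 cells, the 5 highest and 5 lowest of at least 50 UMIs in the CD4 gates, in the receptor comparisons and among the 71 further genes (in CD8 cells), and the 10 most alike. Equal weight per cell, scaling to the median gene, equal depth, other cell filters and other thresholds were tried as alternatives. Calculations used SciPy 1.17.1 and NumPy 2.4.6 in Python 3.11.15, with pandas 2.3.3 for tables and matplotlib 3.10.9 for plots.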

Additional observations from a re-analysis of the deposited data

Results flagged for a closer look

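The sum of the 42 replication genes stood above 1 in CD8 cells, at a ratio of mSTAR1302 over vehicle of 1.05, and below 1 in CD4 cells without Foxp3, at 0.837. Scaled to the median gene these ratios were 1.16 and 0.971. In CD8 cells the median log2 ratio was 0.19 for the members and -0.23 for all measured genes. In CD4 cells without Foxp3 it was -0.36 and -0.31, so the members lay near the background there. The difference between the gates was not tested. 7 genes had counting intervals on opposite sides of 1 in the 2 gates. The ratios, CD8 first and CD4 without Foxp3 second, were 1.19 and 0.770 for Mcm4, 1.24 and 0.702 for Mcm6, 1.14 and 0.672 for Mcm7, and 1.36 and 0.752 for Cdt1. They were 1.15 and 0.535 for Pola1, 1.14 and 0.459 for Pold1, and 1.15 and 0.601 for Lig1. These differences were not tested either, and the share of all genes with such opposite intervals was not counted.

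Near-empty droplets, which enter no comparison, carried the replication genes at 1484 CPM in the mSTAR1302 library and 1590.1 CPM in the vehicle library.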

How the results depend on the processing

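No paired analysis was possible because each group has 1 library, and no replicate could be left out. Of 1755 values of single members under an alternative, 1552 stayed within the counting interval, and 146 lay on the other side of 1 from the reported value. Of those 146, 2 belonged to a gene reported past 1.5-fold, namely Tk1 in CD4 cells without Foxp3 (0.662, and 1.03 at a mitochondrial limit of 5%) and Cdc45 by receptor in vehicle (1.95, and 0.487 at equal depth). The CD8 sum (1.05) was 1.09 with equal weight per cell, 1.16 when scaled to the median gene, 1.12 at equal depth, 1.06 at a mitochondrial limit of 5%, 1.03 with at least 1 Cd3 UMI, 1.22 without cells above 30000 UMIs, 1.11 without cells with a Foxp3 UMI and 1.11 without cells of more than 2 macrophage UMIs. The count past 1.5-fold above (1) was 5 with equal weight, beside 6.77% of all measured genes, and 3 when scaled, beside 8.19%. It was 8 at equal depth, beside 6.8%, and 10 without cells above 30000 UMIs, beside 7.03%. Without macrophage cells it was 3, beside 7.54%. Without Foxp3 cells it was also 3, and the share of all genes was not counted there. In CD4 cells without Foxp3 the sum (0.837) was 0.971 when scaled and 0.900 with at least 1 Cd3 UMI. There 2 genes were past 1.5-fold above with equal weight (beside 4.94% of all measured genes), when scaled (7.27%) and without macrophage cells (4.55%). At equal depth 4 were (5.59%). With at least 1 Cd3 UMI 2 were, and among genes of at least 50 UMIs 0. For these last settings the share of all genes was not counted. Past 1.5-fold below were 3 when scaled, beside 21.5%. At equal depth 14 of the 38 were, beside 28.4% of all measured genes and 19.8% of those with at least 20 CPM. When scaled 15 lay above 1, beside 41.3%. In CD4 cells with Foxp3 the sum (0.932) was 1.02 when scaled and 0.970 at equal depth. Genes past 1.5-fold above (0) were 1 with equal weight (beside 7.65% of all measured genes) and 1 when scaled (9.1%). They were 3 at equal depth (8.59%) and 1 without cells above 30000 UMIs (6.9%). Genes past it below (2) were 6 with equal weight (29.1%) and 1 when scaled (19.5%). At equal depth they were 8, beside 27.1% of all measured genes and 17.1% of those with at least 20 CPM. They were 5 without cells above 30000 UMIs (23.8%) and 1 at a mitochondrial limit of 5%, where the share of all genes was not counted. When scaled 23 lay above 1, beside 45.2%. The receptor ratio in mSTAR1302 (1.22) was 1.17 against another segment and 1.19 at equal depth. In vehicle (1.27) it was 1.06 against another segment, 1.17 with equal weight, 1.17 without cells above 30000 UMIs, 1.16 with Trbv13-1 added and 1.19 without macrophage cells. The CD8 difference in share (3.89 points) was 1.74 points at 15 UMIs, and that of CD4 cells without Foxp3 (1.27 points) was -7.02 points at 5. The cause of these shifts was not tested. Leaving out macrophage cells, the depth ranges and the other random draws were chosen after seeing the data. Depth limits the CD4 gates most, where some members had fewer than 50 UMIs in a library.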
